A study of Mus musculus with 4 samples.

Results

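The 44 genes described here are interferon-stimulated genes and the receptors and transcription factors that switch them on. They were taken by symbol from a list of the pathway, chosen with earlier results of these data known. They are 44 of the 55401 gene models quantified by polyA RNA-Seq in sorted mouse bone marrow cells. The 2 KO libraries came from mice in which floxed Cpt1a was deleted by Vav1-Cre, a Cre driver active throughout blood cells, and the 2 Control libraries came from mice with floxed Cpt1a that the labels give as WT. Both groups were adult mice on a C57BL/6, CD45.2 background, and no treatment of the mice is stated. Cpt1a encodes the enzyme that lets long-chain fatty acids enter mitochondria for oxidation. The labels call the cells ltHSC, whereas the study's text speaks of hematopoietic stem and progenitor cells (HSPCs). No source used here says whether the libraries of a group came from separate mice, so the tests measure the spread between libraries only.

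Type I interferons bind the receptor made of IFNAR1 and IFNAR2, and interferon-γ binds IFNGR1 with IFNGR2. Type I signaling assembles a complex that includes STAT2 and IRF9 and binds a DNA element called the ISRE, whereas interferon-γ signaling acts mainly through a GAS element, and both turn on genes for RNA sensors, antiviral enzymes, GTPases and antigen presentation. In blood stem cells the pathway is known for drawing dormant cells into division when interferon is high and for a basal activity that protects them from viruses.

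The promoter elements are shown first, because they are what many of the members share beyond their name. RefSeq windows (GRCm38.p6) of 250 bases before to 50 bases after a start site were found for 37 of the 44 genes. An ISRE core, searched on both strands as GAAA, any 2 bases and GAAA again, was present in 19 of these 37 genes (51.4%), against 3.99% of the 27025 genes with such a window. A GAS core, searched as TTCNNNGAA, which reads the same on both strands, was present in 13 of the 37 (35.1%), against 9.55% of all. By window, 6 of 43 member windows held both motifs, and the motifs overlapped in 2 of those. A match of letters is a description of the sequence and not a measured site. Written 5′ to 3′ with the ISRE cores in capitals are the windows of B2m (chr2:122147437-122147736, plus strand), which was higher in KO at an unadjusted p under 0.05 in edgeR, of Ifitm3 (chr7:141010695-141010994, minus strand), Oas1a (chr5:120907476-120907775, minus strand) and Ifih1 (chr2:62646206-62646505, minus strand), which were lower at the same threshold, and of Isg15 (chr4:156200769-156201068, minus strand) and Ifitm2 (chr7:140955912-140956211, minus strand), which passed no threshold.
B2m: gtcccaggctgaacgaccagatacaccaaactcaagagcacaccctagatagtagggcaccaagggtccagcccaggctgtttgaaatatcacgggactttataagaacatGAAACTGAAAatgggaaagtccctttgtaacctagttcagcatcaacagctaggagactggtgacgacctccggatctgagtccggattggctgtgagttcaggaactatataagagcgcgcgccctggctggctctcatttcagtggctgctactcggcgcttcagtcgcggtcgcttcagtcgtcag
Ifitm3: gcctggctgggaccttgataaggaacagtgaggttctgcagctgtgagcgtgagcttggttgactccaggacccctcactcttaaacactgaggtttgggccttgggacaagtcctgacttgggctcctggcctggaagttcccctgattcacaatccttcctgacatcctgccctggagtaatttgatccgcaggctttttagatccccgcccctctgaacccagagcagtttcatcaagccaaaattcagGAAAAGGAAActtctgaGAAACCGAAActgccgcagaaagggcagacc
Oas1a: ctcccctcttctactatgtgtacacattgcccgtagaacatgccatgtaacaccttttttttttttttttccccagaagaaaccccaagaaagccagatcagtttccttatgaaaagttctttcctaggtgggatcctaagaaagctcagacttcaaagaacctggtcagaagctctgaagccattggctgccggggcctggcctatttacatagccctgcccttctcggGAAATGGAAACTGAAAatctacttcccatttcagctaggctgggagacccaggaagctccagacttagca
Ifih1: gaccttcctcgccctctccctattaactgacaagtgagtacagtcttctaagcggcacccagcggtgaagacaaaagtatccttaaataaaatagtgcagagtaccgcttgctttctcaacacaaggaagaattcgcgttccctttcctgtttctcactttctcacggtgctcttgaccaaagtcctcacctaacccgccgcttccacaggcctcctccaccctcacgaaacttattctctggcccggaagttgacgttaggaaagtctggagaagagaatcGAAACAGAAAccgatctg
Isg15: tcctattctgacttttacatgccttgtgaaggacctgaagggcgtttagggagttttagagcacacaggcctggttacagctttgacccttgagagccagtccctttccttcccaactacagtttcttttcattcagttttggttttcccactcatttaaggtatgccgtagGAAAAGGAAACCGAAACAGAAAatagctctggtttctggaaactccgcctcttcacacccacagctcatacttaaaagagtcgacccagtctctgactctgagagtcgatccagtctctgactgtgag
Ifitm2: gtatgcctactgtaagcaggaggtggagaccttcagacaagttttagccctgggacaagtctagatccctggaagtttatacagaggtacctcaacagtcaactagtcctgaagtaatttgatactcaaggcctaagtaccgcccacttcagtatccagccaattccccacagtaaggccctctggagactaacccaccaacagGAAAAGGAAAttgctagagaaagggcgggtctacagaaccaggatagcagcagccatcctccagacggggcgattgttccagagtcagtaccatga

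In Isg15, 3 cores overlap in a row, and in Oas1a 2 cores overlap, whereas the 2 cores of Ifitm3 lie just after its start site. The presence of a core did not go with 1 direction. Among the 19 genes with a core, both KO libraries were above both Control libraries in library-scaled counts for 5 and below them for 6, beside 22.7% and 19.3% of all genes tested, and the median log2 fold change was 0.00. Among the 18 genes with a window and no core, the counts were 6 above and 4 below, with a median of 0.06. At an unadjusted p under 0.05 in edgeR, 1 gene with a core was higher and 3 were lower. Without a core the counts were 1 and 0, beside 5.81% and 4.61% of all genes tested.

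Libraries held 34083159 and 33909781 counts in KO and 20589218 and 23291747 in Control. Cpt1a itself, the check of the labels, was at 11.48 and 19.20 TPM (a share of all transcripts that corrects for transcript length) in KO and at 36.97 and 35.56 TPM in Control, a log2 fold change of -1.60 (SE 0.152, edgeR adjusted p = 0.00695). Stem cell genes such as Hlf, Procr and Fgd5 were detected in every library, but so were Flt3 (225 to 227 TPM in KO, 179 to 223 TPM in Control) and Cd48 (146 to 160 TPM in KO, 80.3 to 88.0 TPM in Control), which long-term stem cells are known to lack. The libraries also differed in the markers of other lineages. The summed level of 13 B lineage markers was 765 and 500 TPM in KO against 69.1 and 102 TPM in Control, with 11 of the 13 higher at an edgeR adjusted p under 0.05, while 14 erythroid markers summed to 387 and 461 TPM in KO against 1110 and 1020 TPM in Control. The 10 mast cell markers summed to 730 and 827 TPM in KO against 453 and 377 TPM in Control, with 4 higher at the same threshold. Kit and Gata2 were the largest parts of the Control sum. Kit was at 262 and 275 TPM in KO and 253 and 232 TPM in Control, and Gata2 at 111 and 111 against 112 and 104. Cma1, Mcpt4 and Tpsb2 were at 47.82 to 123.46 TPM in KO and at 0 to 0.08 TPM in Control, whereas Hdc and Fcer1a overlapped between groups. The 12 neutrophil markers summed to 6270 and 6460 TPM in KO against 11700 and 8050 TPM in Control, with 1 lower at an edgeR adjusted p under 0.05. In bulk RNA fewer cells of a type and less RNA per cell cannot be told apart, and the part of these shifts in the values below was not tested.

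The question for these genes was whether the pathway as a whole differed between KO and Control cells. No common shift was found, which was already known from earlier results of these data when the list was chosen. All 44 were tested, and 0 were higher and 0 lower at an edgeR adjusted p under 0.05, a threshold passed by 0.451% of the 14635 genes tested in the higher direction and by 0.212% in the lower. The lowest adjusted p of a member was 0.275. The median log2 fold change, KO over Control, was 0.0182, beside 0.00871 over all genes tested, and 24 members were above 0 and 20 below it. At an unadjusted p under 0.05, 3 members were higher in KO (Mx2, Tap1 and B2m, 6.82% of the list, beside a background of 5.81%) and 4 were lower (Oas1a, Usp18, Ifitm3 and Ifih1, 9.09%, beside 4.61%). These shares are near the background, with 3 or 4 genes behind each. The study's own rule, an unadjusted p under 0.05 with a more than 2-fold change, run here in edgeR, took 1 member, Mx2, in the higher direction (background 2.44%) and 0 in the lower (1.33%). DESeq2, which called 4.29% of all genes higher and 3.55% lower at an adjusted p under 0.05, called the same 7 members, 3 higher and 4 lower, with adjusted p between 0.000372 and 0.0367. Single libraries moved the unadjusted counts. Leaving out KO replicate 1 gave 2 higher and 1 lower, KO replicate 2 gave 2 and 0, Control replicate 1 gave 4 and 8, and Control replicate 2 gave 7 and 1. The shares of all genes tested moved in the same fits, to 2.25% higher and 2.87% lower, 2.49% and 2.11%, 8.06% and 5.85%, and 9.17% and 5.92%. The median log2 fold change was -0.0136, 0.0502, -0.0408 and 0.0479 when these libraries were left out in that order. Of the 7 members, Tap1 alone passed the unadjusted threshold in all 4 of these fits. Mx2 did not pass it without KO replicate 1, nor B2m without KO replicate 2, and of the 4 lower ones, none passed without KO replicate 2 or without Control replicate 2, and Oas1a alone passed without KO replicate 1.

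**Figure D1:**
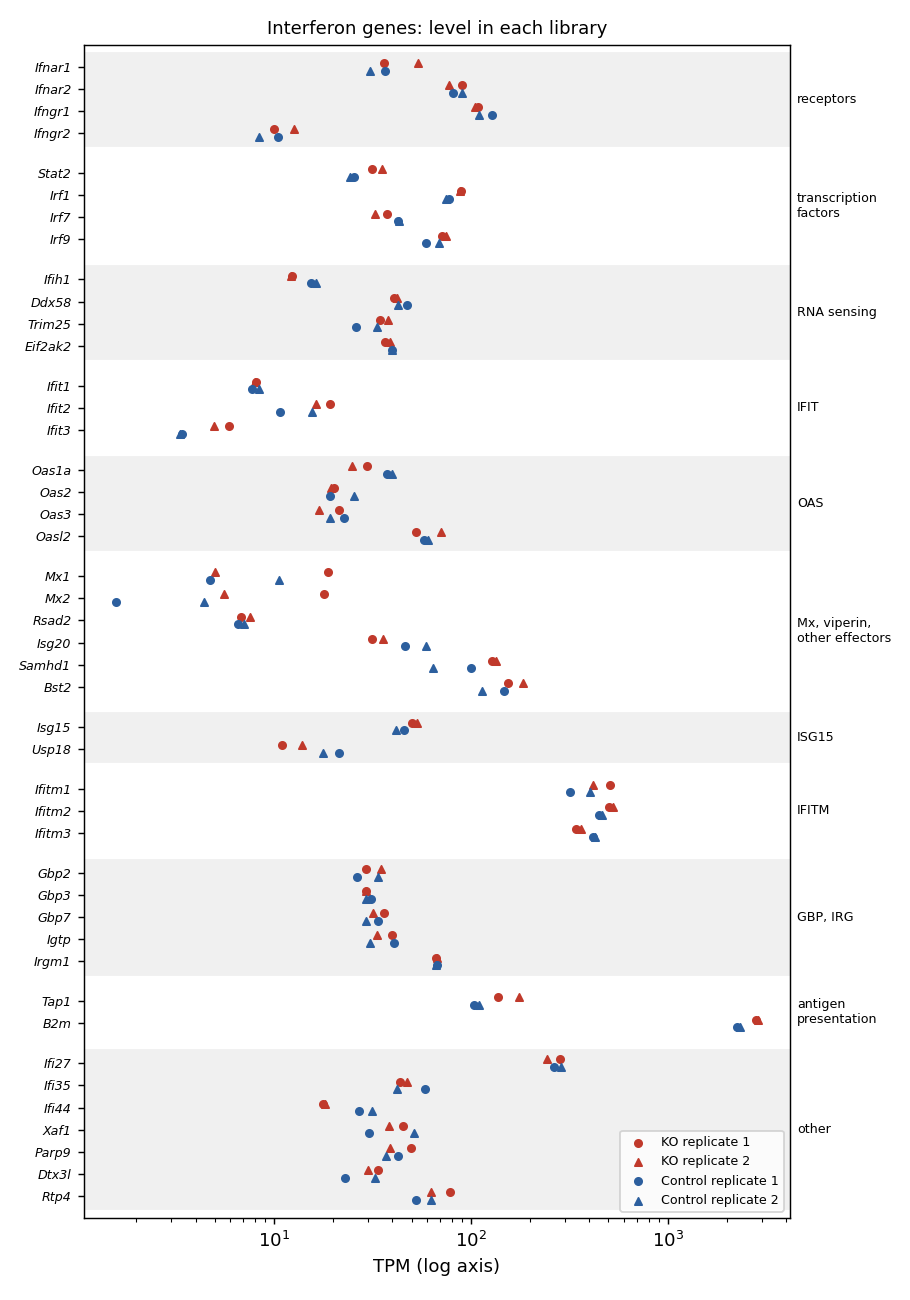
Level of each of the 44 genes in each library, in TPM on a log axis, grouped by role, with KO libraries in red just above Control libraries in blue (circle, replicate 1; triangle, replicate 2). Most genes have their 4 points close together, from B2m above 2000 TPM to Ifit3 at 3.34 to 5.90 TPM, and Mx1 and Mx2 spread most between replicates.

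For most members the spread between libraries was small enough to bound the difference between the groups within 2-fold. Each had at least 51 counts in every library, the median SE of a member's log2 fold change was 0.171 (range 0.0752 to 0.599, beside a median of 0.261 over all genes tested), and the 95% interval of 37 of the 44 (84.1%) lay wholly within a 2-fold change either way, beside 53.6% of all genes tested, which include many at lower counts. The 7 members whose interval reached beyond 2-fold were Ifit3, Oas1a, Mx1, Mx2, Isg20, Usp18 and Ifi44. In CPM (counts scaled to library size), both KO libraries were above both Control libraries for 13 of the 44 members (background 22.7%) and below for 11 (background 19.3%). In TPM the counts were 15 above (background 23.1%) and 10 below (background 16.8%).

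**Figure D2:**
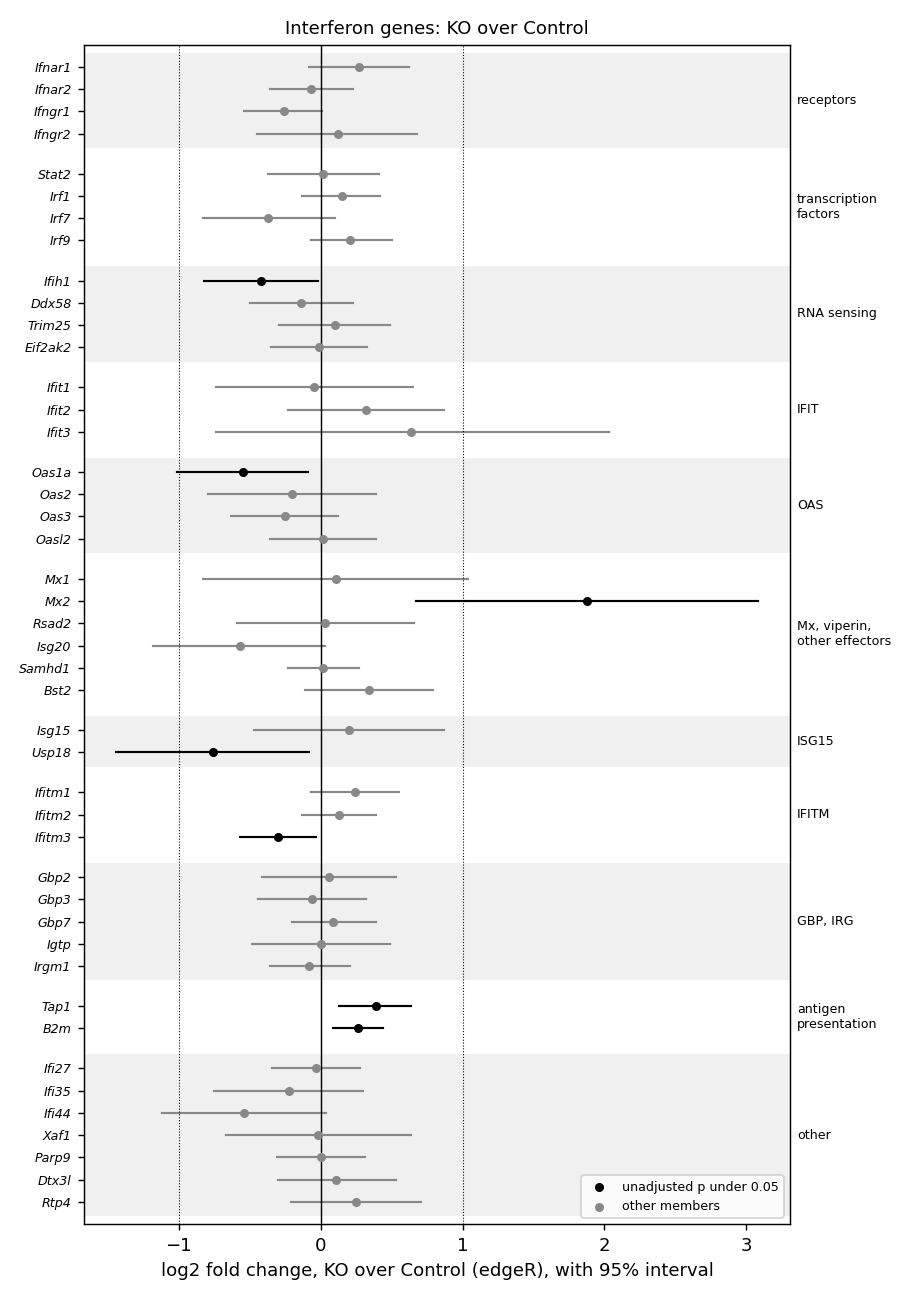
The log2 fold change of each gene, KO over Control, from edgeR, with its 95% interval; black marks an unadjusted p under 0.05 and the dotted lines a 2-fold change. The points fall on both sides of 0, within each role group except antigen presentation too, and Mx2 at 1.88 is the farthest from 0.

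The ligands stand at the head of the pathway and were not detected. The 10 interferon genes examined (Ifnb1, Ifna1, Ifna2, Ifna4, Ifna5, Ifng, Ifnk, Ifne, Ifnl2 and Ifnl3) were at 0 in all 4 libraries, which allows up to 0.088 and 0.0885 CPM in KO and 0.146 and 0.129 CPM in Control at a limit of 3 counts. The limit covers counting error only. Ifna1 and Ifna5 share 67.4% and 52.2% of their 50-base words with other genes, against 12.2% for Ifna2 and 6.45% for Ifna4. The shares were 38.8% for Ifnl3, 31.7% for Ifnl2, 19.9% for Ifng and 0% for Ifnb1, Ifnk and Ifne.

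The receptor genes were all expressed and none passed either edgeR threshold. Ifnar1, the first chain of the type I receptor, was at 36.12 and 53.72 TPM in KO and at 36.46 and 30.93 TPM in Control, a log2 fold change of 0.27 (SE 0.151), which was 0.42 without KO replicate 1 and 0.10 without KO replicate 2. Its partner Ifnar2 was at 89.79 and 77.64 TPM in KO and at 80.87 and 90.70 TPM in Control. The groups overlapped in TPM for both chains. In CPM both KO libraries were above both Control libraries for Ifnar1 (88.4 and 111 against 86.1 and 79.6), and the groups overlapped for Ifnar2. Ifngr1, the ligand-binding chain for interferon-γ, was at 108.80 and 104.92 TPM in KO and at 127.89 and 110.28 TPM in Control, and both KO libraries were below both Control libraries, at a log2 fold change of -0.26 (SE 0.119, edgeR adjusted p = 0.501), or -0.15 without Control replicate 1. The second chain, Ifngr2, had the lowest level of the 4 at 10.04 and 12.68 TPM in KO and 10.54 and 8.42 TPM in Control. Ifnar2, Ifnar1 and Ifngr2 lie in 1 region of chromosome 16, where part of the Ifnar2 sequence (7.89% of its 50-base words) is shared with an overlapping gene model.

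The transcription factors also pointed both ways. Irf9, the DNA-binding subunit of the ISRE complex, was at 71.46 and 75.15 TPM in KO and at 59.05 and 68.74 TPM in Control (log2 fold change 0.21, SE 0.123). Irf7, which drives interferon gene expression once phosphorylated, was at 37.65 and 32.51 TPM in KO and at 42.61 and 43.41 TPM in Control (log2 fold change -0.37, SE 0.201). Both sets of libraries were separate, in opposite directions, and neither gene passed a threshold in edgeR with all 4 libraries. Irf7 ranged from -0.51 without Control replicate 1, where its unadjusted p was under 0.05, to -0.20 without Control replicate 2, and in DESeq2 both genes had an unadjusted p under 0.05. Irf1, a factor strongly induced by interferon-γ, was at 89.68 and 88.27 TPM in KO and at 77.50 and 75.10 TPM in Control (log2 fold change 0.15, SE 0.120). For Stat2, the subunit that carries the activation domain of the ISRE complex, the answer depended on the scale, as described with Samhd1 below.

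Among the sensors of viral RNA, Ifih1 (chromosome 2, 62595798 to 62646255, GRCm38), which encodes MDA5, the sensor of long double-stranded RNA, was at 12.32 and 12.23 TPM in KO and at 15.43 and 16.38 TPM in Control. Both KO libraries were below both Control libraries, and replicates differed by less than the groups did. The log2 fold change was -0.42 (SE 0.173, edgeR adjusted p = 0.456). Its relative Ddx58, which encodes RIG-I, the sensor of short RNA with 5′-triphosphate ends, had a log2 fold change of -0.14 (SE 0.158) with overlapping CPM. Trim25, a ubiquitin ligase of the same route, and Eif2ak2, the kinase PKR that halts translation when it binds double-stranded RNA, were at 0.10 and -0.01 on the same log2 scale.

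The oligoadenylate synthetases make the messenger that activates RNase L. Oas1a (chromosome 5, 120896256 to 120907521) was at 29.75 and 24.96 TPM in KO and at 37.73 and 40.00 TPM in Control, so the groups did not overlap. Its log2 fold change was -0.55 (SE 0.199, edgeR adjusted p = 0.418). This gene shares 57.6% of its 50-base words with other genes, chiefly Oas1g. The posterior SD of its count under the RSEM model was 0.304% to 0.540% of the count over the 4 libraries. Oas1g was at 10.35 and 11.88 TPM in KO and at 9.48 and 19.21 TPM in Control, so the groups overlapped on that scale. In CPM it was at 8.71 and 7.04 in KO and at 8.88 and 21.8 in Control, with both KO libraries lower. Its log2 fold change was -0.96 (SE 0.476, edgeR adjusted p = 0.537). Oas2 and Oas3 had log2 fold changes of -0.20 and -0.25, whereas Oasl2, an OAS-like protein, was at 0.02.

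The largest difference among the 44 was in the transcript of Mx2, a gene of the dynamin-like Mx GTPase family, whose protein was not measured. It had 343 and 294 counts in KO against 51 and 60 in Control, or 9.96 and 8.70 CPM in KO against 2.46 and 2.62 CPM in Control. Replicates were close to each other on this scale and the groups were far apart, by 1.88 on the log2 scale (SE 0.52, 95% interval 0.67 to 3.08, edgeR adjusted p = 0.275, DESeq2 adjusted p = 0.000372). In TPM the same gene was at 17.93 and 5.58 in KO and at 1.58 and 4.42 in Control. The KO replicates were now apart by more than 3-fold, and the lower KO library stood close above the higher Control library. The effective length, the usable length of the transcript forms credited to the gene, weighted by their abundance, was 791 and 2159 bases in KO and 2162 and 801 bases in Control. Short and long forms were therefore credited to 1 library of each group. When the effective length was entered in the count model the log2 fold change was 1.95, with an edgeR adjusted p of 0.587. Mx2 lies on chromosome 16, 97535308 to 97560900 (GRCm38), in the same region as Mx1, with which it shares its closest sequence (4.38% of its 50-base words lie in other genes).

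Mx1, the related gene, was at 14.1 and 9.18 CPM in KO against 8.69 and 12.9 CPM in Control. Its TPM values were 18.78 and 5.03 in KO and 4.72 and 10.65 in Control. The groups overlapped on both scales. The log2 fold change was 0.11 (SE 0.405) and its sign turned when 1 library was left out, to -0.15 without Control replicate 1 and to -0.24 without KO replicate 1. The effective lengths, 1072 and 2528 bases in KO and 2545 and 1644 bases in Control, were in the same order over the libraries as the lengths of Mx2.

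Samhd1, which breaks down deoxynucleotides and so restricts retroviruses, differed between the scales more than any other member. It was at 158 and 149 CPM in KO and at 155 and 147 CPM in Control, a log2 fold change of 0.02 (SE 0.108). In TPM it was at 128.75 and 133.98 in KO and at 100.38 and 64.42 in Control, which is 1.59-fold higher in KO. The effective length was 1748 and 1540 bases in KO and 2136 and 3087 bases in Control. Stat2 had the same pattern, with overlapping groups in CPM (59.9 and 65.5 in KO, 68.0 and 55.9 in Control), separate groups in TPM (31.35 and 35.54 in KO, 25.52 and 24.26 in Control) and effective lengths of 2719 and 2554 bases in KO and 3687 and 3115 bases in Control. With the length in the count model Samhd1 had a log2 fold change of 0.66 (edgeR adjusted p = 0.534). Read numbers of these genes thus overlapped between the groups, and the higher TPM in KO went with shorter credited transcripts.

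**Figure D3:**
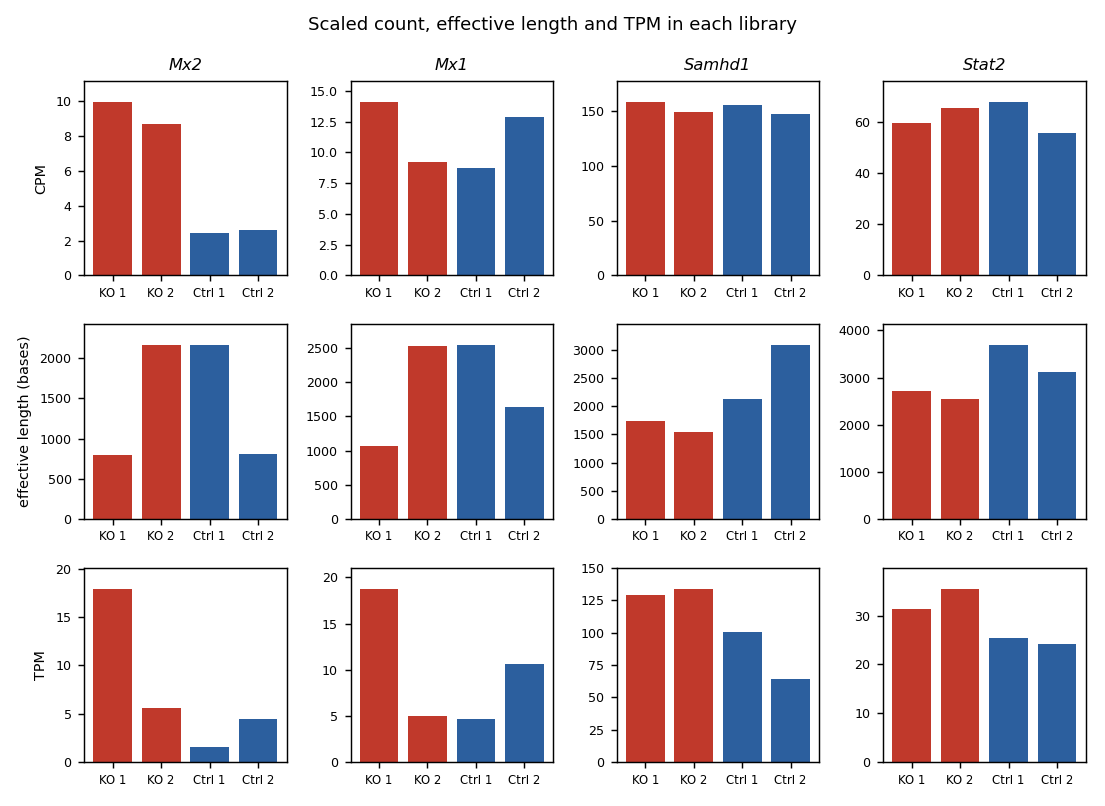
CPM (top row), effective length in bases (middle) and TPM (bottom) of Mx2, Mx1, Samhd1 and Stat2 in each library, KO in red left of Control in blue. Mx2 differs between the groups in CPM (9.96 and 8.70 against 2.46 and 2.62), whereas Samhd1 and Stat2 are level in CPM and differ in effective length and TPM.

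Over the whole list the scales mostly gave the same side. The ratio of means, KO over Control, was on the same side of 1 in TPM and in CPM for 42 of the 44, the exceptions being Parp9 and Xaf1, and the log2 ratios differed by more than 0.25 for 3 (Samhd1, Stat2 and Mx1).

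The other effectors were mixed. Rsad2, which encodes viperin, the enzyme that makes a chain-terminating nucleotide, was at 6.78 and 7.55 TPM in KO and at 6.57 and 7.05 TPM in Control. Isg20, an exonuclease, was at 31.61 and 35.69 TPM in KO and at 46.58 and 59.13 TPM in Control, with separate groups and a log2 fold change of -0.57 (SE 0.263, edgeR adjusted p = 0.509). Bst2, the tetherin that holds budding virus at the cell surface, was at 155.14 and 185.20 TPM in KO and at 147.94 and 113.76 TPM in Control (log2 fold change 0.34, SE 0.193). Its value lay between 0.17, without Control replicate 2, and 0.54, without Control replicate 1. Bst2 also marks plasmacytoid dendritic cells, for which the 12 markers examined, Bst2 included, summed to 374 and 373 TPM in KO and 294 and 269 TPM in Control. None of their 11 tested markers passed an edgeR adjusted p of 0.05 in either direction, and their median log2 fold change was 0.403. Single markers of this list went both ways. Siglech was at 0.93 and 0 TPM in KO and at 3.11 and 0.70 TPM in Control, whereas Ly6d (21.74 and 11.57 TPM in KO) and Spib (4.68 and 3.24 TPM in KO) were at 0 in both Control libraries and Ccr9 was at 6.48 and 6.71 TPM in KO and at 3.04 and 1.76 TPM in Control. Their part in the Bst2 values was not tested.

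The IFIT proteins, which bind viral RNA caps and ends, stood low. Ifit1 was at 8.07 and 8.02 TPM in KO and at 7.76 and 8.42 TPM in Control. Ifit2 was at 19.30 and 16.32 TPM in KO and at 10.76 and 15.65 TPM in Control, with a log2 fold change of 0.32 (SE 0.238) that became 0.07 without Control replicate 1 and 0.64 without Control replicate 2. Ifit3 had the lowest mean level of the 44 and the widest interval, a log2 fold change of 0.64 with a 95% interval of -0.74 to 2.03, and it shares 51.2% of its 50-base words with other genes, chiefly Ifit3b. The 3 genes lie in 1 cluster on chromosome 19.

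In the ISG15 system the modifier and its protease pointed opposite ways. Isg15, the ubiquitin-like modifier, was at 50.10 and 53.58 TPM in KO and at 45.94 and 41.47 TPM in Control (log2 fold change 0.20, SE 0.290). Usp18 (chromosome 6, 121245906 to 121270917), the protease that removes ISG15 and also damps signaling at IFNAR2, was at 11.01 and 13.81 TPM in KO and at 21.50 and 17.70 TPM in Control. Both KO libraries were below both Control libraries, and at -0.76 (SE 0.295, 95% interval -1.44 to -0.08, edgeR adjusted p = 0.439) it had the lowest log2 fold change of the list.

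The IFITM genes, a cluster on chromosome 7 whose products block virus entry at membranes, were among the most abundant members and also split. Ifitm3 (141009586 to 141010770) was at 342.81 and 363.83 TPM in KO and at 416.71 and 428.03 TPM in Control, a log2 fold change of -0.30 (SE 0.117, edgeR adjusted p = 0.441). Ifitm1 was at 511.33 and 419.59 TPM in KO and at 321.04 and 400.98 TPM in Control (0.24, SE 0.133, on the log2 scale, or 0.13 to 0.37 with either Control library left out), and Ifitm2 at 503.30 and 525.77 TPM in KO and at 448.51 and 464.18 TPM in Control (0.13, SE 0.111). The groups were separate for all 3 genes, with KO lower for Ifitm3 and higher for Ifitm1 and Ifitm2. Ifitm2 shares 48.5% of its 50-base words with other genes, chiefly the overlapping model Gm45717. The posterior SD of its count was at most 0.0495% of the count.

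The GTPases against intracellular pathogens stayed closest to 0. The guanylate-binding proteins Gbp2, Gbp3 and Gbp7 had log2 fold changes of 0.06, -0.06 and 0.09, and the immunity-related GTPases Igtp and Irgm1 of 0.00 and -0.08. Irgm1, which is known to protect stem cells from interferon-driven exhaustion in mice, was at 66.27 and 67.38 TPM in KO and at 67.70 and 66.40 TPM in Control. All 5 intervals lay within a 2-fold change.

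Both antigen presentation genes of the list were higher in KO at an unadjusted p under 0.05. Tap1 (chromosome 17, 34187553 to 34197225), a subunit of the peptide transporter that loads MHC class I, was at 136.83 and 175.27 TPM in KO and at 103.80 and 109.59 TPM in Control, higher by 0.39 on the log2 scale (SE 0.110, 95% interval 0.13 to 0.64, edgeR adjusted p = 0.289). B2m (chromosome 2, 122147686 to 122153083), the light chain of MHC class I and the most abundant member, was at 2803.26 and 2870.46 TPM in KO and at 2254.88 and 2339.24 TPM in Control, higher by 0.26 on the log2 scale (SE 0.0752, 95% interval 0.09 to 0.44, edgeR adjusted p = 0.294). The groups did not overlap for either gene. The start of Tap1 overlaps Psmb9, which encodes an immunoproteasome subunit, on the other strand. Psmb9 was at 156.90 and 166.60 TPM in KO and at 113.49 and 133.10 TPM in Control, higher by 0.29 on the log2 scale (SE 0.123), and it is unknown here whether the counting used strand. Over the 17 other antigen presentation genes of the wider list, 11 log2 fold changes were above 0 and 6 below it, with a median of 0.0661. Tap2, the partner of Tap1, was at 126.86 and 122.16 TPM in KO and at 139.29 and 131.23 TPM in Control (-0.17 on the log2 scale), and the MHC class I heavy chains H2-K1 and H2-D1 were at 0.07 and 0.09. The B lineage markers given above were higher in the same libraries, and their part in the Tap1 and B2m values was not tested.

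Of the remaining members, Ifi44 was at 17.77 and 18.26 TPM in KO and at 27.02 and 31.45 TPM in Control, with separate groups (log2 fold change -0.54, SE 0.249, edgeR adjusted p = 0.512). The value was -0.83 without Control replicate 1 and -0.16 without Control replicate 2. Ifi27, with a level among the 5 highest, was at 285.15 and 245.02 TPM in KO and at 263.51 and 287.96 TPM in Control. Xaf1, a pro-apoptotic zinc finger protein, was at 45.15 and 38.51 TPM in KO and at 30.26 and 51.33 TPM in Control, so that both KO values lay between the Control values. Its log2 fold change of -0.02 became 0.47 without Control replicate 2. Ifi35, Parp9, Dtx3l and Rtp4 ranged from -0.22 to 0.25, and the first 3 overlapped between groups.

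In the order of levels, B2m stood apart in both groups, followed, by the mean over all 4 libraries, by Ifitm2, Ifitm1, Ifitm3 and Ifi27. In Control alone Ifitm3 (mean 422 TPM) was above Ifitm1 (mean 361 TPM). Ifitm1 and Ifitm2 overlapped in KO and not in Control. The summed TPM of the members was 6228 and 6247 in KO and 5366 and 5553 in Control, and without B2m it was 3425 and 3376 in KO and 3111 and 3214 in Control. The median member stood at 37.2 and 38.3 TPM in KO and at 40.2 and 40.0 TPM in Control. The higher sum in KO thus rested on the most abundant genes. In CPM the library with the highest value was KO replicate 1 for 13 genes, KO replicate 2 for 10, Control replicate 1 for 6 and Control replicate 2 for 15, so no library was high or low throughout.

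The rest of the pathway was examined with 129 further genes, of which 118 were expressed well enough to test. None was called at an edgeR adjusted p under 0.05. At an unadjusted p under 0.05, 12 (10.2%) were higher in KO and 6 (5.08%) lower, beside the background of 5.81% and 4.61%, and the median log2 fold change was 0.0956. These counts also moved when 1 library was left out, and so did the shares of all genes tested in the same fits. No dependence of the pathway counts on a particular library is drawn from this. DESeq2 called 8 higher and 3 lower at an adjusted p under 0.05. Slfn8, a Schlafen family gene, was at 33.14 and 35.97 TPM in KO and at 25.34 and 22.73 TPM in Control (log2 fold change 0.60, SE 0.153, edgeR adjusted p = 0.232). Epsti1 was at 72.51 and 74.91 TPM in KO and at 44.68 and 50.20 TPM in Control (0.56, SE 0.150). Its groups, like those of Slfn8, were well apart. Next by p in the higher direction were Tmem173 (the adaptor STING, 0.48), Ifi205 (2.08), Ifi27l2a (1.49) and Nlrc5, the activator of MHC class I genes (0.60), all on the log2 scale. Tmem173 and Nlrc5 overlapped between groups in TPM, with 112.85 and 130.05 in KO and 98.34 and 125.90 in Control for Tmem173, and 53.93 and 49.93 in KO and 30.86 and 55.67 in Control for Nlrc5. The other 6 of the 12 were Irf4, Irf5, Trim34a, Psmb9, Lgals9 and Pyhin1, of which Irf4, a factor of lymphoid cells, had the highest log2 fold change (2.67, SE 0.981). Irf4 was low, at 3.27 and 0.62 TPM in KO and at 0.31 and 0.28 TPM in Control, and its KO replicates were far apart. In the lower direction stood Shisa5 (-0.43), Znfx1 (-0.49), Cish (-0.85), a cytokine-induced inhibitor of STAT signaling, Slfn9 (-0.39), Slfn3 (-0.72) and Dhx58 (-0.42), which encodes LGP2, the third receptor of the RIG-I family. Schlafen genes therefore appeared in both directions, and they share between 11.5% and 15.6% of their 50-base words with other genes.

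**Figure D4:**
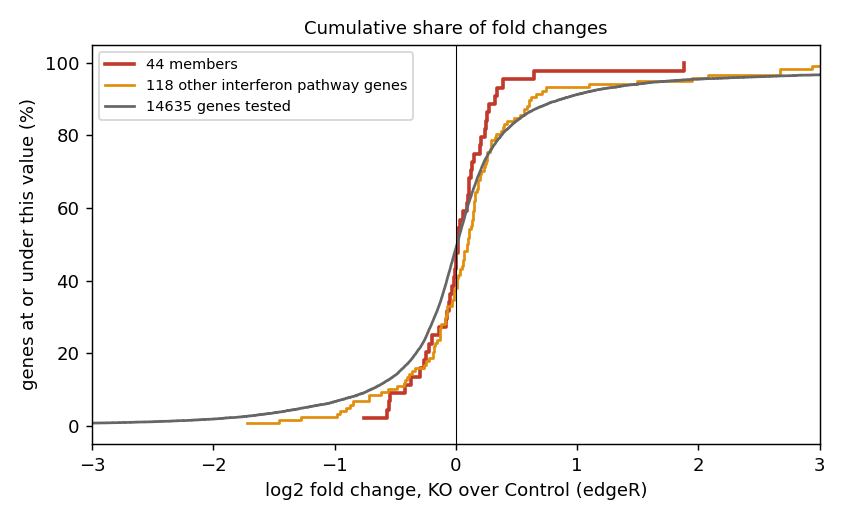
Cumulative share of genes by log2 fold change, KO over Control, for the 44 members (red), 118 other interferon pathway genes (orange) and all 14635 genes tested (gray). The member curve crosses 0 near its middle (median 0.0182) and is steeper than the curve of all genes, while the other pathway genes lie slightly to the right (median 0.0956).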

How the data were processed

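PolyA RNA was sequenced from sorted bone marrow cells (2 KO and 2 Control libraries, grouped by title). Per the labels, the authors used STAR and RSEM with mm10, and a directional library kit. Not given in the sources used here were versions, annotation and strand setting. The deposited files hold expected counts, posterior mean counts with their standard deviations (unit other), effective lengths (unit other) and TPM per gene, not pooled. No per-sample columns of other samples were present (0).

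Gene IDs were matched to GENCODE M21 (55141 of 55401 given a symbol). Expected counts were rounded, filtered with filterByExpr (minimum count 10), TMM-scaled and tested with edgeR 4.0.16 in R 4.3.3 (quasi-likelihood test, Benjamini-Hochberg over 14635 genes). The SE was taken from the fold change and its F statistic. Totals were 20589218 to 34083159 counts, and groups of 2 limit precision. An exact permutation test of 2 against 2 cannot go below p = 0.333. Alternatives were DESeq2 1.42.0, its size factors, no filter, effective length offsets, posterior mean counts, limma 3.58.1 on log2(TPM + 1) or log2(TPM + 0.1) with TPM of at least 1 in 2 libraries or no filter, a replicate block and leaving out each library. Code was tested on simulated data. Shared 50-base words were counted over GENCODE M21 transcripts.

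Members and lists were chosen with earlier results of these data known. Genes named with values were those past an adjusted p of 0.05, the 8 members with the smallest p in each direction, the 5 most abundant, the 4 receptors, the 4 least alike between replicates at a mean TPM above 5, and 6 pathway genes in each direction. The remaining members, the other pathway genes given values or names (Oas1g, Psmb9, Tap2, H2-K1 and the like) and the cell markers were named after their values were seen.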

Additional observations from a re-analysis of the deposited data

How the results depend on the processing

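All 23 named member results were recomputed under 13 alternatives (299 values). With DESeq2, adjusted calls among members were 3 higher and 4 lower in place of 0 and 0: Mx2 1.87, Tap1 0.38, B2m 0.26, Oas1a -0.55, Usp18 -0.77, Ifitm3 -0.30 and Ifih1 -0.43 on the log2 scale. No other alternative called a member, and the lowest adjusted p among these was 0.05, for Tap1 without Control replicate 2. At an unadjusted p under 0.05, members higher in KO numbered 2 to 7 when 1 library was left out (7 without Control replicate 2), and members lower numbered 0 to 8 (8 without Control replicate 1, 1 without Control replicate 2, 1 without KO replicate 1 and 0 without KO replicate 2), 8 with DESeq2 and 1 with the length offset. The shares of all genes higher and lower were 10.4% and 8.8% with DESeq2, 4.66% and 3.84% with the length offset, and 2.25% to 9.17% and 2.11% to 5.92% with 1 library left out. In these fits the lone sample is assumed to vary like the other group. The median log2 fold change of members was 0.0904 with limma at a pseudocount of 1, filtered or not, 0.0934 at 0.1, and -0.0408 (without Control replicate 1) to 0.0502 (without KO replicate 2) with 1 library left out. At an unadjusted p under 0.05, the 118 other pathway genes tested gave 21 higher and 14 lower with DESeq2, and 7 and 2 with the length offset. Filtered limma tested 113 of the pathway genes and gave 6 and 2 at a pseudocount of 1, and 7 and 2 at 0.1. The shares of all genes higher and lower in these limma fits were 4.9% and 4.01%, and 4.76% and 3.87%. The cause was not tested.

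Signs turned for 15 of the 299 values, on the log2 scale. With 1 library left out, Ifi27 ranged from -0.12 to 0.06 (0.02 without Control replicate 2), Ifnar2 from -0.18 to 0.04 (without KO replicate 2), Ifngr2 from -0.02 (without Control replicate 2) to 0.28, Mx1 from -0.24 (without KO replicate 1; -0.15 without Control replicate 1) to 0.42, Samhd1 from -0.02 (without KO replicate 1; -0.01 without Control replicate 2) to 0.07, and Xaf1 from -0.37 to 0.47 (without Control replicate 2; 0.06 without KO replicate 2). Xaf1 was also at 0.01 with the length offset, 0.08 with each limma fit and 0.04 with the replicate block.

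Over all genes, calls were 66 higher and 31 lower in the main edgeR fit, 628 and 519 with DESeq2, 111 and 85 with no filter, 3 and 1 with the length offset, 5 and 0 with limma at a pseudocount of 1, 0 and 0 at 0.1 or with no filter, and 24 to 238 and 18 to 144 with 1 library left out. Same-numbered KO and Control libraries did not deviate together (correlation across genes -0.0239). With 2 libraries per group this cannot tell whether the numbers pair the libraries, because each group gives only 1 deviation to compare. The replicate block gave 62 higher and 36 lower calls over all genes, and 0 and 0 among members. In the same fit 3 members were higher and 3 lower at an unadjusted p under 0.05, beside 5.03% and 4.14% of all genes tested.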
